A study of Mus musculus with 2 samples.

Results

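The interferon-response gene families were followed in the liver of apoE-KO mice given cholesterol (Chol) in the diet. The members were found by a rule that reads names and uses no measured value, as all non-control probes whose gene name on the array begins with Irf and a digit, Ifi, Oas or Gbp and a digit, or is one of a few further names such as Mx1, Mx2, Stat2, Rsad2 and Usp18. This gave 51 genes on 78 probes and 87 spots, out of 27962 gene names on 41174 probes and 43379 spots. Since the rule reads the beginning of a name, it also took in Irf2bp1 and Irf2bp2, which code for corepressors that bind IRF2.

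Interferons are secreted proteins that cells release on infection or inflammation. Type I interferons signal through the IFNAR receptor and the kinases JAK1 and TYK2 to a complex of STAT proteins and IRF9, which binds the interferon-stimulated response element (ISRE). Interferon gamma, made mainly by T and NK cells, signals through its own receptor to STAT dimers, which bind the gamma-activated site (GAS). The genes switched on in this way code for antiviral proteins (the Oas, Ifit, Ifitm and Mx families, Rsad2), for GTPases that act on pathogens inside the cell (Gbp), for DNA sensors (the Ifi200 family) and for regulators of the response itself (Irf, Stat, Usp18). In the liver, both hepatocytes and the resident macrophages, the Kupffer cells, respond to interferons.

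All mice were male C57BL/6 mice without apoE, so both groups lack the protein and no mice with apoE were measured. From the age of 10 weeks, the control group received normal chow and the other group the same chow with 1.25% Chol (the high-Chol diet), in both cases for 1 week. Liver RNA from 3 independent experiments per diet was hybridized to one-color arrays of 60-base probes, and the labels do not say how many mice an array holds, so p-values measure the spread between arrays, which may be technical. Values are log2 signals relative to the 75th percentile of the same array, and a difference is the mean of the high-Chol arrays minus that of the normal chow arrays.

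The 3 normal chow arrays and high-Chol array 1 lay on slide 1, and high-Chol arrays 2 and 3 on slide 2. The slides also differed in signal, with a 75th percentile of 271 to 373 on slide 1 and of 762 to 799 on slide 2 (arbitrary units), and 50.5% to 67.2% of the non-control spots of an array were well above background. Diet and slide therefore overlap in part. The difference within slide 1, which high-Chol array 1 alone carries, is given as the value with slide as a block. It stands beside the members called and, where it was far from the difference over all arrays, beside the members described in full. Of the other genes called, only some have it. As a check of the tissue, all 9 hepatocyte markers on the list, Alb and Apoa1 among them, were well above background on all 6 arrays.

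The promoters of a few members are shown because promoters of this kind can hold the binding sequences named above. The windows were taken from RefSeq (GRCm38.p6) and hold 250 bases before and 50 after the start of a gene. They covered 40 of the 51 members and the others, among them Ifi204, Mx1, Mx2, Oas2 and Usp18, had no entry. Both strands were searched for the core of the ISRE, GAAANNGAAA, and for the GAS, TTCNNNGAA, which reads the same on both strands. Matches of both can overlap, as they do in Ifitm3. The ISRE core was found in 18 of the 40 members (45.0%) against 3.99% of 27025 genes with a window, and the GAS in 11 members (27.5%) against 9.55%. Each line gives the 180 bases before the start, 5′ to 3′ on the strand of the gene, with the matches in capitals. The first 4 are Gbp2, Gbp1 (today Gbp2b), Ifitm6 and Irf8, and the last 4 are Irf1, Ifit1, Ifit3 and Rsad2, 4 further members known to be induced by interferon.
Gbp2, chr3:142620483-142620662 (plus strand): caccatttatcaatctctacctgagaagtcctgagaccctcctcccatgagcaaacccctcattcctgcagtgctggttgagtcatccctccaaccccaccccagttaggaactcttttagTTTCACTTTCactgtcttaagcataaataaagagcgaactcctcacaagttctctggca
Gbp1, chr3:142594667-142594846 (plus strand): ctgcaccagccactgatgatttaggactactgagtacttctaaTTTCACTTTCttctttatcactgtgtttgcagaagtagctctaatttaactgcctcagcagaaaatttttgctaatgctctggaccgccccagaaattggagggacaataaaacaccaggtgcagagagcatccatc
Ifitm6, chr7:141016893-141017072 (minus strand): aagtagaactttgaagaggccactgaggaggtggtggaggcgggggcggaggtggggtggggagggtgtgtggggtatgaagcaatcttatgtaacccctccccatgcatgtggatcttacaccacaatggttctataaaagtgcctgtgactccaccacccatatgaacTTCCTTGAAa
Irf8, chr8:120736178-120736357 (plus strand): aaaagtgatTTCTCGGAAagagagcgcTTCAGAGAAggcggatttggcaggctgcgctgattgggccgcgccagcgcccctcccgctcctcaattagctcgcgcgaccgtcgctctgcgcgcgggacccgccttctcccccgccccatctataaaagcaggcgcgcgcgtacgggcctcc
Irf1, chr11:53769834-53770013 (plus strand): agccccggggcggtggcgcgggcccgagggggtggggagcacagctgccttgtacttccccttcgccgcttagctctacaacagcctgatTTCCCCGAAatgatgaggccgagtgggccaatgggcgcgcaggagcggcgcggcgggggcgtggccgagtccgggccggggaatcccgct
Ifit1, chr19:34640709-34640888 (plus strand): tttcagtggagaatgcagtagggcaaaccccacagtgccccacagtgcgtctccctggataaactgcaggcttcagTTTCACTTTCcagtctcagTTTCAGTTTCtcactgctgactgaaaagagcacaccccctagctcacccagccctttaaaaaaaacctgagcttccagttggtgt
Ifit3, chr19:34583349-34583528 (plus strand): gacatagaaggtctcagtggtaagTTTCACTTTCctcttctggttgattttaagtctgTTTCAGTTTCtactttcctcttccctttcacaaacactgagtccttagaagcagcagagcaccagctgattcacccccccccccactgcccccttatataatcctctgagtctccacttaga
Rsad2, chr12:26456453-26456632 (minus strand): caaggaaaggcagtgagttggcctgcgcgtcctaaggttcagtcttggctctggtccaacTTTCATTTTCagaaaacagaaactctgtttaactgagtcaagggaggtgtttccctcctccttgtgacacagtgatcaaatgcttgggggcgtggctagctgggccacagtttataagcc
Gbp2 and Gbp1 held the same ISRE core on the opposite strand, so that the strand of the gene reads TTTCACTTTC, at 59 and 137 bases before the start. Irf8 held a pair of GAS matches at 171 and 153 bases, Irf1 one at 90 bases and Ifitm6 one at 10 bases. Ifit1 held ISRE cores at 104 and 85 bases, Ifit3 at 156 and 122 bases, and Rsad2 at 120 bases. The window of Ifi30 held neither motif. A match is a run of letters and does not show that a factor binds there.

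Most of the 51 genes were measured, and few of them passed the test. After removal of probes that were dim on both diets, 46 members were left, and 44 of these were well above background on all 6 arrays. The 5 left out were Ifi202b, Irf4, Oas1d, Oas1g and Oas1h. By limma with Benjamini-Hochberg adjustment over all 16726 genes tested, 4 members were higher on the high-Chol diet and 0 were lower, which is to be read against 2.69% of all genes called higher and 0.227% called lower (2.92% in all). Without adjustment, 13 members were higher at p under 0.05 (12.3% of all genes) and 2 were lower (8.83%). The genes called were Gbp2, Ifitm6, Ifi30 and Irf8. None of them was called with slide as a block, with a normexp background or without the filter on dim probes, settings that called few genes anywhere (11 of 16726, 0 of 16726 and 26 of 27961 genes higher). Only Gbp2 was called without normal chow array 2 and only Ifitm6 without high-Chol array 2, while 10 members were called higher without high-Chol array 1 (beside 13.9% of all genes).

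Past 1.5-fold, 11 members were higher and 0 were lower, against 15.4% and 5.84% of all genes. The 11 include Oas1b and Mx1, which passed the filter through the high-Chol arrays alone, and with probes above background on all 6 arrays 9 of 44 members were higher, against 9.53% of all genes. In 10 members all 3 high-Chol arrays lay above all 3 normal chow arrays, and in 5 they all lay below, against 11.6% and 13.7% of all genes. The median difference of the members was 0.25 (range -0.56 to 1.76), beside -0.02 over all genes, and 31 of 46 members had a positive difference, beside 47.8% of all genes. Scaling to the median of each array, in place of the 75th percentile, took the members to 0.02 and all genes to -0.26. Both scalings subtract a single value per array, so nearly every gene shifts by the same amount. The gap between both medians, 0.28 with either scaling, could therefore hardly change and is no check of it. With slide as a block the median of the members was 0.07 and that of all genes -0.06.

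**Figure D1:**
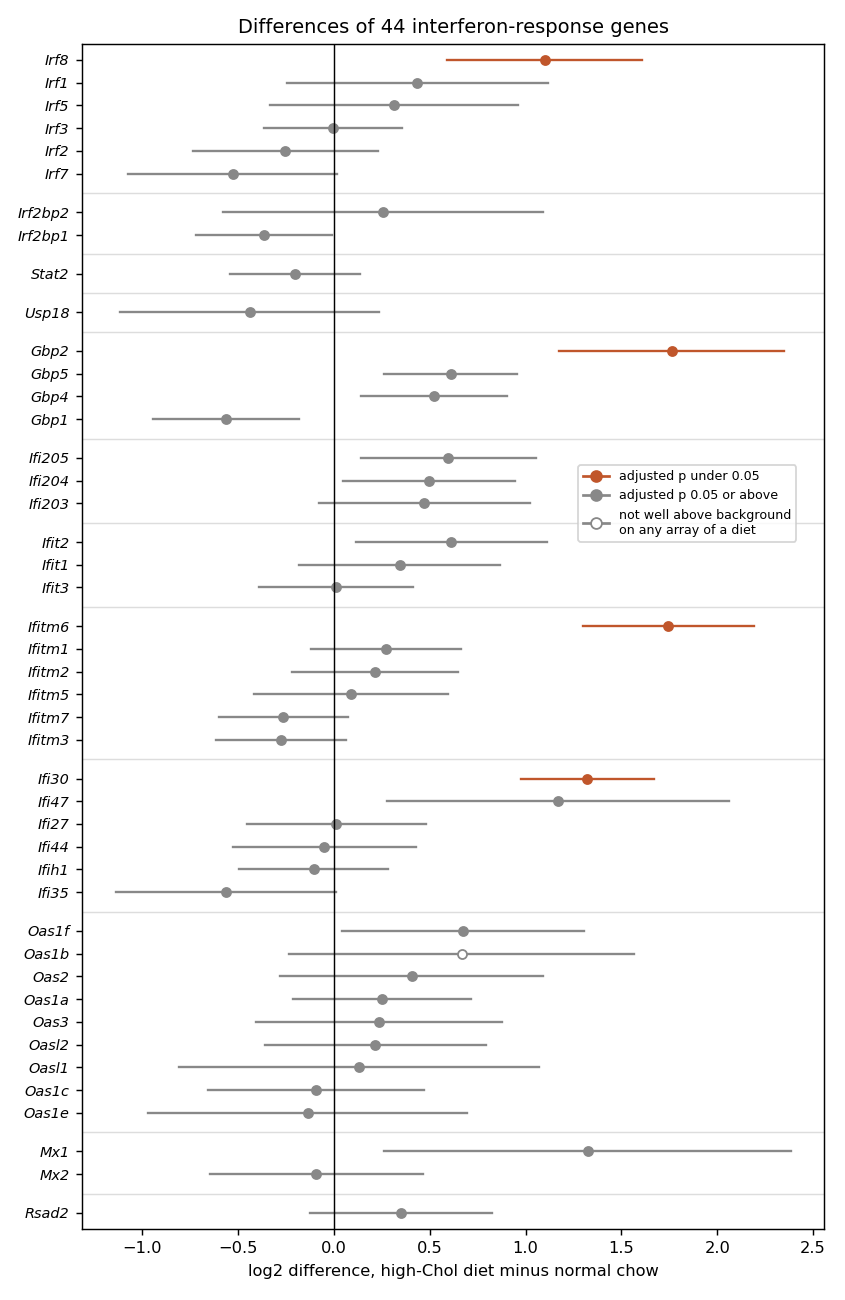
Log2 difference (high-Chol diet minus normal chow, 3 arrays each) of 44 of the 46 members tested, grouped by family, with points for the limma estimates (open for Oas1b, not well above background on any normal chow array) and bars for their 95% confidence intervals. The 4 members called, Gbp2, Ifitm6, Ifi30 and Irf8, stand at 1.76, 1.74, 1.32 and 1.1, and in most families members lie on both sides of 0.

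The guanylate-binding proteins are large GTPases that attack the vacuoles of intracellular pathogens and are strongly induced by interferon gamma. Gbp2 read -1.0, -0.15 and -0.68 on normal chow against 1.02, 1.41 and 1.02 on the high-Chol arrays. The diets did not overlap, and the high-Chol array of slide 1 stood with the other two. The rise was 1.76 ± 0.25 (SE, n = 3 arrays per diet), or 3.39-fold, with a limma adjusted p of 0.017, and it was 1.64 with slide as a block (adjusted p = 0.205). The probe lies on chromosome 3, chr3:142530694-142530753 (mm7, plus strand).

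The other three Gbp genes did not pass the test, and they did not go one way. Gbp5 read -1.72, -1.85 and -1.82 on normal chow against -1.03, -1.23 and -1.3 on the high-Chol diet (difference 0.61 ± 0.15, adjusted p = 0.090). Gbp4, whose probe matches the gene that is now Gbp3, differed by 0.52 ± 0.16 (adjusted p = 0.153), again without overlap. Gbp1 was on the other side, with -1.83, -1.46 and -1.82 on normal chow against -2.25, -2.31 and -2.24 on the high-Chol diet. All 3 high-Chol arrays lay below all 3 normal chow arrays (difference -0.56 ± 0.16, adjusted p = 0.131), and the value with slide as a block was close to this (-0.55). Gbp1 and Gbp2, whose promoters share the ISRE core shown above, stood on opposite sides of 0.
Further Gbp genes are on the array under older names that the rule did not take, and they were looked up afterwards through their accessions. Those now called Gbp4 (Mpa2), Gbp6 (Mpa2l), Gbp8 (5830443L24Rik) and Gbp9 (BC057170) differed by 0.96, 1.54, 0.84 and 0.88, each without overlap between the diets, and Gbp7 (9830147J24Rik) by -0.14 with overlap. None of these 5 passed the test, and the smallest adjusted p was 0.065, for Gbp9.

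The interferon-induced transmembrane proteins (Ifitm) block the fusion of viruses with the membranes of the cell. Ifitm6, a member of the family known from myeloid cells, read -1.86, -1.72 and -2.02 on normal chow against -0.44, 0.07 and -0.00 on the high-Chol diet. There was no overlap, and the lowest high-Chol array was that of slide 1. The rise of 1.74 ± 0.19 (3.35-fold) had an adjusted p of 0.009, and with slide as a block it was 1.43 (adjusted p = 0.091). The probe lies at chr7:137433078-137433137 (mm7, minus strand).

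No other Ifitm gene passed the test. Ifitm3, the most studied antiviral member, read 6.09, 6.11 and 6.05 on normal chow against 5.80, 5.93 and 5.68 on the high-Chol diet (difference -0.28 ± 0.14, adjusted p = 0.303). Ifitm7 was likewise below normal chow on all 3 high-Chol arrays (-0.26). Ifitm1, Ifitm2 and Ifitm5 overlapped, with differences of 0.27, 0.21 and 0.09. The median of the 6 genes was 0.15, and it was -0.09 when each array was scaled to its median.

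Among the remaining genes named Ifi, Ifi30 codes for GILT, the lysosomal thiol reductase that unfolds antigens for presentation on MHC class II. It read 0.68, 0.66 and 0.56 on normal chow against 1.80, 2.03 and 2.04 on the high-Chol diet. The 3 arrays of each diet lay close together and far from those of the other. The rise of 1.32 ± 0.15 (2.50-fold) had an adjusted p of 0.009, and within slide 1 it was 1.17 (adjusted p = 0.095 with slide as a block). The probe is placed at chr8:69217897-69218623 (mm7, minus strand), a span longer than its own 60 bases.

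Ifi47, a GTPase of the immunity-related (IRG) type, had a difference nearly as large, but its arrays varied more. Its values were 1.67, 0.68 and 0.30 on normal chow against 2.19, 2.36 and 1.61 on the high-Chol diet. Normal chow array 1 lay above the lowest high-Chol array, and the difference of 1.17 ± 0.38 did not pass the test (adjusted p = 0.163). Ifi35, which modulates innate signaling, read 2.42, 2.12 and 2.28 on normal chow against 2.21, 1.39 and 1.52 on the high-Chol diet. High-Chol array 1 was within the range of normal chow, and only the arrays of slide 2 were below it (difference -0.56 ± 0.24, adjusted p = 0.241, -0.06 with slide as a block). Ifi27 (now Ifi27l2a), Ifi44 and Ifih1, the RNA sensor MDA5, differed by 0.01, -0.05 and -0.11, with overlap. The gene that is now called Ifi27 is on the array as D12Ertd647e and is not a member. It was one of the genes called lower, at -0.91 ± 0.16 (limma adjusted p = 0.035, -1.03 with slide as a block). It was looked up after its value was known.

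**Figure D2:**
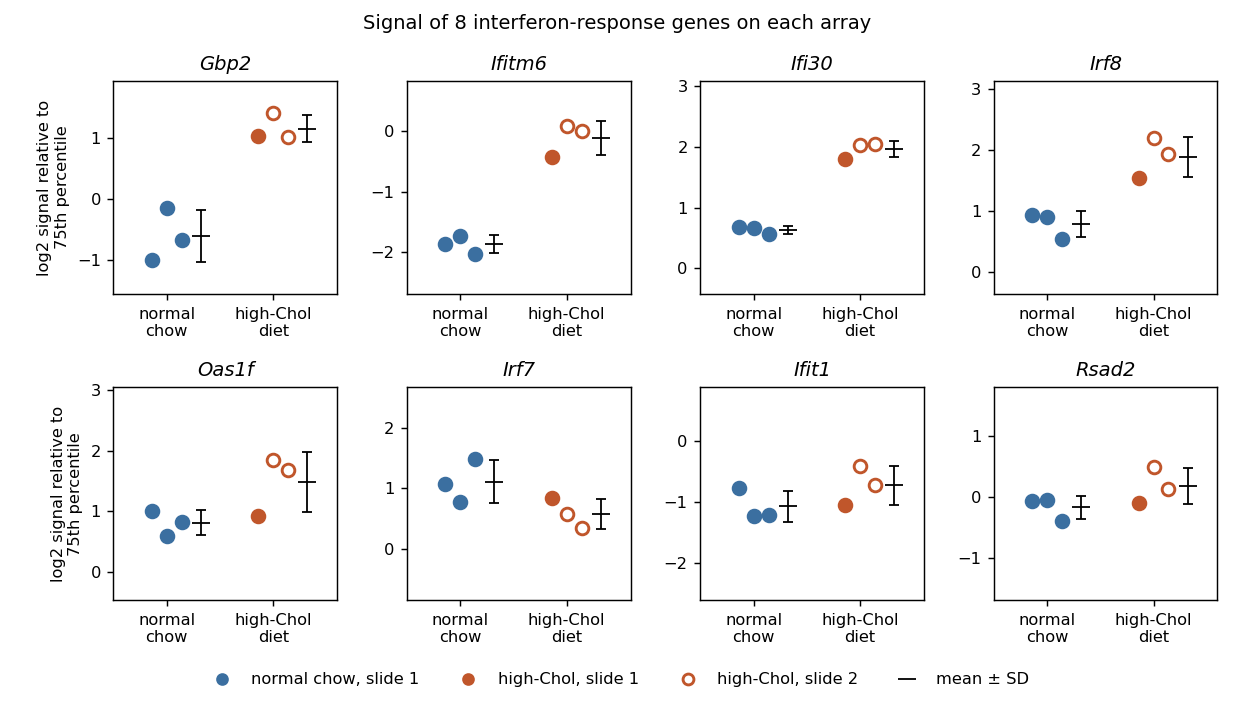
Log2 signal relative to the 75th percentile on each array for 8 members, with filled points for slide 1, open points for slide 2 and bars for the mean ± SD of 3 arrays. The diets are apart in the upper row (Gbp2, Ifitm6, Ifi30, Irf8), whereas in the lower row (Oas1f, Irf7, Ifit1, Rsad2) high-Chol array 1 lies within or close to the normal chow values.

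The Ifi200 proteins sense DNA and bind chromatin. The probes used for Ifi204 and Ifi205 were higher on all 3 high-Chol arrays than on all normal chow arrays, by 0.50 ± 0.19 and 0.60 ± 0.19 (adjusted p = 0.205 and 0.163), and by 0.26 and 0.27 with slide as a block. Each of these genes had further probes above background, and all of them were positive without overlap, up to 1.20 for Ifi204. Ifi203 read -0.22, -0.36 and -0.29 on normal chow against -0.33, 0.44 and 0.43 on the high-Chol diet. Here the slide 1 array was with normal chow and both slide 2 arrays were high, so the difference of 0.47 became -0.03 with slide as a block.

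The interferon regulatory factors (Irf) are the transcription factors of the response. Irf8, which directs the development of monocytes and dendritic cells and cooperates with other factors at interferon-induced promoters, read 0.93, 0.90 and 0.55 on normal chow against 1.55, 2.20 and 1.93 on the high-Chol diet. There was no overlap, and high-Chol array 1 was again the lowest of its diet. The rise was 1.1 ± 0.22 (2.14-fold, adjusted p = 0.047), and it was 0.75 with slide as a block (adjusted p = 0.429). A second Irf8 probe rose by 1.03 and was also without overlap. The call was close to the threshold, and it was lost with scaling to the median (adjusted p = 0.074) and with quantile normalization (0.052). The probe used lies at chr8:119391398-119391457 (mm7, plus strand).

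The factors that act before or in the type I response did not pass the test. Irf3, which triggers the first wave of interferon beta, read 4.13, 4.17 and 3.86 on normal chow against 4.05, 4.0 and 4.11 on the high-Chol diet (difference -0.00 ± 0.15). Irf7, which is itself induced by interferon and amplifies interferon alpha, read 1.08, 0.77 and 1.49 on normal chow against 0.84, 0.57 and 0.34 on the high-Chol diet. Both slide 2 arrays lay below normal chow and the slide 1 array lay within it (difference -0.53 ± 0.23, adjusted p = 0.245, -0.28 with slide as a block). Irf1, a rapid target of interferon gamma, read 3.97, 3.59 and 2.94 on normal chow against 4.16, 3.62 and 4.03 on the high-Chol diet, with overlap (0.44 ± 0.29, adjusted p = 0.398, 0.66 with slide as a block). A second Irf1 probe differed by 0.05, and without single arrays the difference of the first was 0.16 to 0.67.
Irf5 differed by 0.31, Irf2, a repressor, by -0.25, and Irf2bp2 by 0.26, with overlap in each case. Irf2bp1 was lower on all 3 high-Chol arrays, by -0.36 ± 0.15 (adjusted p = 0.229, -0.20 with slide as a block). Irf9, which is on the array as Isgf3g and so is not a member, differed by -0.39 (adjusted p = 0.374).

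STAT2 and USP18 transmit and restrain the type I signal. Stat2, which codes for a subunit of the complex that binds the ISRE, read 1.46, 1.33 and 1.28 on normal chow against 1.26, 1.08 and 1.11 on the high-Chol diet, lower on all 3 arrays (-0.20 ± 0.14, adjusted p = 0.420, -0.10 with slide as a block). Usp18, which removes ISG15 from proteins and shuts off the type I receptor, read 1.65, 0.70 and 1.43 against 1.16, 0.57 and 0.72, with overlap (-0.44 ± 0.29, adjusted p = 0.391, -0.10 with slide as a block).

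None of the Ifit, Rsad2, Mx and Oas genes, the classical antiviral effectors, passed the test, although Ifit2, Mx1 and Oas1f had a p under 0.05 before adjustment. The Ifit proteins bind viral RNA and translation factors. Ifit1 read -0.77, -1.23 and -1.21 on normal chow against -1.05, -0.41 and -0.72 on the high-Chol diet, where the ranges overlapped (0.34 ± 0.22, adjusted p = 0.390, 0.02 with slide as a block). Ifit2 differed by 0.61 ± 0.21 without overlap (adjusted p = 0.179, 0.35 with slide as a block), and Ifit3 by 0.01 (0.41 on a second probe). Rsad2, the radical SAM enzyme viperin, read -0.06, -0.05 and -0.39 against -0.09, 0.50 and 0.14, a difference of 0.35 ± 0.20 (adjusted p = 0.345, 0.08 with slide as a block), and over its 3 probes the difference was 0.11 to 0.44.
The dynamin-like Mx GTPases trap viral nucleocapsids. Mx2 read 0.22, -0.38 and -0.61 on normal chow against -0.26, -0.51 and -0.28 on the high-Chol diet (difference -0.09 ± 0.24). Mx1 was near background, above it on 1 of the 3 normal chow arrays and on all high-Chol arrays. Its values of -5.55, -5.92 and -4.51 against -4.75, -3.50 and -3.75 overlapped, and the difference of 1.32 ± 0.45 did not pass the test (adjusted p = 0.176, 0.57 with slide as a block). With another background correction, normexp, it changed sign (-0.48).

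The 2′-5′-oligoadenylate synthetases make the messenger that activates RNase L on viral RNA. Of the 9 Oas genes tested, 7 had a positive difference and 0 were called, and the median was 0.24, which became -0.00 with scaling to the median and -0.30 with normexp. Oas1a read 0.01, -0.54 and -0.30 on normal chow against -0.12, 0.20 and -0.15 on the high-Chol diet (0.25 ± 0.20, 0.16 with slide as a block). Oasl1 varied widely on normal chow, with 1.69, 0.53 and 0.32 against 0.89, 0.58 and 1.47 on the high-Chol diet (0.13 ± 0.40, 0.04 with slide as a block). Neither gene separated the diets. Oas1f had the largest difference of the family, 0.67 ± 0.27 (adjusted p = 0.218), from 1.01, 0.60 and 0.83 on normal chow against 0.93, 1.85 and 1.69 on the high-Chol diet. The slide 1 array lay within normal chow, and the value with slide as a block was 0.11. Oas1b was not well above background on any normal chow array, its values overlapped between the diets and it did not pass the test (adjusted p = 0.343), so no fold is given.

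Over all 46 members, high-Chol array 1 lay above the 3 normal chow arrays of its slide in 14 (30.4%), below them in 10 (21.7%) and between them in 22. Of the 16436 genes with a value on every array, 21.9% lay above and 32.8% below. In 16 members (34.8%) both slide 2 arrays were the highest of the 6, beside 24.8% of those genes. With slide as a block, 0 of the 46 members were called (5 at p under 0.05 without adjustment), beside 11 of 16726 genes, and 28 members were positive. The 4 members called over all arrays differed by 0.75 to 1.64 there, and Ifi203, Ifit1, Oas1f and Ifi35 came to between -0.06 and 0.11. Others were farther from 0 there than over all arrays, such as Ifi47, Gbp5, Irf2bp2 and Irf5 at 1.31, 0.76, 0.73 and 0.48. Whether the difference between slides or the diet set the values of slide 2 cannot be told apart.

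**Figure D3:**
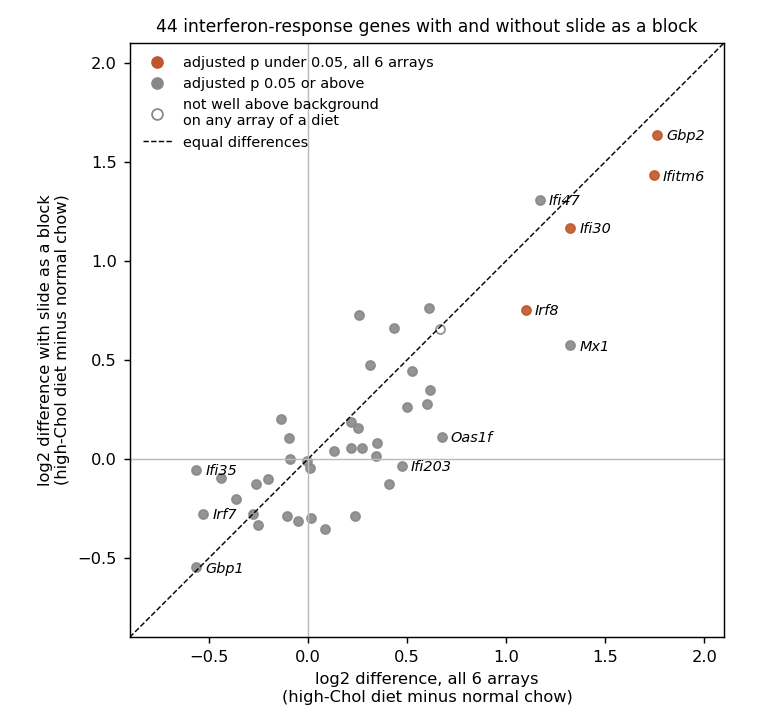
Log2 difference of 44 of the 46 members over all 6 arrays (horizontal) against the difference with slide as a block (vertical), which rests on high-Chol array 1 and the 3 normal chow arrays (open point, Oas1b). Gbp2, Ifitm6 and Ifi30 lie near the dashed line of equal differences, at 1.64, 1.43 and 1.17 on the vertical axis, while Oas1f and Ifi203 lie near 0 on that axis.

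Other genes of the pathway were taken from lists. Of 15 interferon genes on the array, 8 were tested and 1 was called: Ifng, the gene for interferon gamma. It read -5.74, -6.05 and -5.91 on normal chow, not well above background on any array, and -4.47, -3.67 and -4.05 on the high-Chol diet, well above it on all 3. This gives only a bound, at least 1.40-fold higher. The limma adjusted p of 0.011 belongs to the difference of the values given here and not to the bound. The gene entered the test through the high-Chol arrays alone. It was left out of the test when a probe had to be well above background on all 6 arrays. Ifna1, a type I interferon, read -3.70, -3.56 and -2.21 against -2.22, -0.21 and -0.16, a difference of 2.29 ± 0.64 with overlap (adjusted p = 0.124). Both slide 2 arrays were the highest, and with slide as a block the difference was 0.93. Ifnb1 was not tested, being dim on both diets.

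Of the 8 receptor and kinase genes tested, 1 was called. This was Il10rb, a receptor chain that the lambda interferons share with interleukin-10, at 1.48, 1.46 and 1.49 on normal chow against 2.23, 2.89 and 2.79 on the high-Chol diet (rise of 1.16 ± 0.20, adjusted p = 0.034, 0.75 with slide as a block). The chains of the type I and gamma receptors, Ifnar1, Ifnar2, Ifngr1 and Ifngr2, differed by -0.15, -0.06, 0.23 and 0.21, and none passed the test. Among 11 sensors and adaptors 0 were called (3 higher and 2 lower at p under 0.05 without adjustment), with Tlr7 closest at 1.25 ± 0.26 (adjusted p = 0.055, 0.68 with slide as a block). Tlr7 was called with median scaling, with probes above background on all 6 arrays and with a trended and robust variance prior. Among 9 brakes on the signal 0 were called (2 higher and 1 lower without adjustment), with Socs1 at 0.39 and Socs3 at -0.10.

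Of 30 further interferon-induced genes tested, 4 were called higher and 0 lower (8 and 0 without adjustment), and their median difference was 0.17 (-0.06 with scaling to the median). Cxcl10, a chemokine that attracts T and NK cells, read -0.90, -0.71 and -0.49 on normal chow against 1.3, 2.24 and 3.0 on the high-Chol diet. Cxcl9, its close relative and a typical interferon gamma target, read -0.16, 0.84 and 0.26 against 2.53, 3.05 and 2.70. Both were far apart between the diets, with rises of 2.88 ± 0.40 and 2.45 ± 0.28 (adjusted p = 0.016 and 0.009), and of 2.00 and 2.22 with slide as a block. Ms4a4c and Slfn2, a regulator of T cell and monocyte quiescence, rose by 1.55 and 1.13 (1.15 and 1.20 with slide as a block). Isg15, the ubiquitin-like modifier that USP18 removes, differed by 0.17 ± 0.22 (adjusted p = 0.654, 0.40 with slide as a block), and Bst2, Ly6e, Eif2ak2 and Parp12 by -0.10, -0.30, 0.11 and 0.08. Tor3a, Cmpk2, Epsti1 and Phf11 differed by 1.08, 0.86, 0.84 and 0.81 without overlap and did not pass the test, and with slide as a block these were 0.73, 0.70, 0.40 and 0.26.

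Of 5 immunity-related GTPases 0 were called (1 higher without adjustment). Tgtp came closest with 1.42 ± 0.29, without overlap (adjusted p = 0.054), while Igtp and Iigp1 differed by 0.01 and -0.05. Tgtp was called with probes above background on all 6 arrays and with a trended and robust variance prior. Of 9 antigen processing genes induced by interferon gamma, 1 was called. Ciita, the master regulator of MHC class II genes, read -4.37, -4.22 and -4.57 on normal chow against -2.71, -2.28 and -2.40 on the high-Chol diet. The diets did not overlap (rise of 1.93 ± 0.18, limma adjusted p = 0.006, 1.68 with slide as a block). The gene was well above background on only 2 of the 3 normal chow arrays. Like Ifng, it was left out of the test when a probe had to be above background on all 6 arrays. None of the immunoproteasome and peptide transport genes of the same list passed the test, and all overlapped between the diets. Psmb8, Psmb9, Tap1 and B2m differed by -0.01, 0.04, 0.05 and -0.02, and the farthest from 0 were Tap2 at -0.29 and Psmb10 at 0.21. Over these lists 7 of 78 genes tested were called, beside 2.92% of all genes, and the count was 0 with slide as a block, with normexp and without the filter on dim probes, where few genes were called at all. Leaving out 1 array gave 2 to 16 genes called, with Cxcl9 called each time, and Ciita too under the filter used here.

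**Figure D4:**
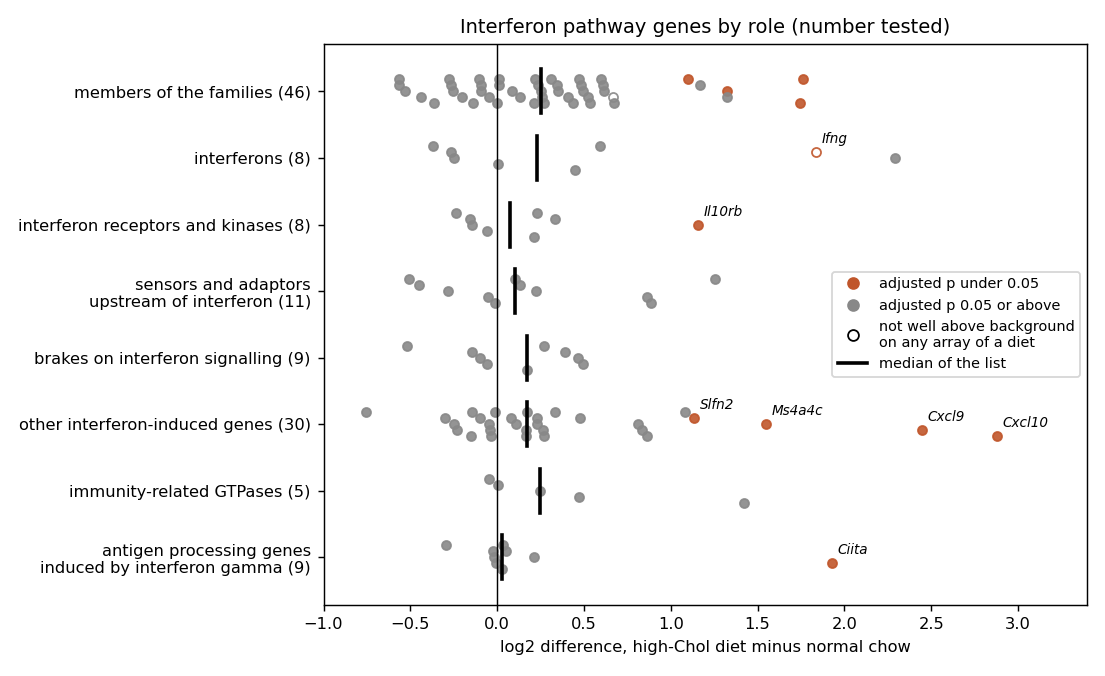
Log2 difference (high-Chol diet minus normal chow) of each gene tested, for the 46 members and for 7 lists of other pathway genes by role, with black bars for the median of each list and open points for genes not well above background on any array of a diet, which have only a bound. The medians of the 7 lists are between 0.03 and 0.24, and the called genes Cxcl9 and Cxcl10 stand at 2.45 and 2.88.

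The summed levels of macrophage and Kupffer cell, monocyte and dendritic cell, neutrophil, and T and NK cell markers were also higher on the high-Chol diet. Of 12 macrophage and Kupffer cell markers all were positive and 6 were called higher, among them Cd68 (1.74) and Marco (1.83). Over all genes tested, 47.8% were positive and 2.69% were called higher. Their summed level, as log2 relative to the 75th percentile, was 7.65 to 7.90 on normal chow against 8.88 to 9.29 on the high-Chol diet. The summed level of the 8 monocyte and dendritic cell markers tested (3 called) was 2.94 to 3.30 on normal chow against 3.73 to 3.87 on the high-Chol diet, and Itgam and Cd209a of this list were not tested. This sum was mostly that of Ly6c1 and Plac8, which differed by 0.53 and 0.47 and were not called. Of the 8 markers 7 were positive, and Flt3 differed by -0.26.
For 5 neutrophil markers (3 called) it was 0.69 to 0.86 on normal chow against 3.27 to 4.0 on the high-Chol diet, Camp and Elane not being tested. S100a8 and S100a9, which code for abundant granulocyte proteins, rose by 3.21 and 2.90. For the 10 T and NK cell markers tested (1 called, Nkg7 at 1.18) the summed level was -0.01 to 0.20 against 0.65 to 1.44, and Cd8a and Ncr1, which mark cytotoxic T and NK cells, were not tested because they were dim on both diets. With slide as a block the calls in these 4 lists came to 0 of 12 macrophage, 1 of 8 monocyte and dendritic cell (Chi3l3), 0 of 5 neutrophil and 0 of 10 T and NK cell markers, beside 11 of 16726 genes. The medians there were 0.73, 1.1, 1.80 and 0.90 in place of 0.95, 1.18, 2.51 and 1.03. Several markers entered the test through the high-Chol arrays alone, being dim on at least 1 normal chow array, among them Ccr2, Itgax, Retnlg, Gzma and Prf1. With probes above background on all 6 arrays, 10, 4, 3 and 4 genes of these lists were left, with medians of 1.03, 0.50, 2.90 and 0.75. Scaling to the median left the medians of these 4 lists positive, and with normexp those of the neutrophil and of the T and NK cell list were negative (-0.19 and -0.34).

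Few genes of the other lists were called. Plasmacytoid dendritic cells are the main source of interferon alpha, and of their 5 markers tested 0 were called (1 higher without adjustment, Ly6d at 0.80). Their summed level, 6.41 to 6.51 on normal chow against 6.26 to 6.48 on the high-Chol diet, was almost that of Bst2 alone (6.42 and 6.32), which is also on the list of interferon-induced genes. Their defining marker Siglech was not tested, being dim. B cell, endothelial and hepatocyte markers had 0 calls each among 5, 8 and 9 genes tested (1, 1 and 1 higher and 0, 0 and 2 lower without adjustment), with medians of 0.53, 0.13 and -0.34. The B cell median was -0.02 with slide as a block and -0.44 with normexp, and the endothelial median was -0.10 with median scaling. The B cell sum overlapped, with -0.87 to -0.35 on normal chow against -0.52 to -0.11 on the high-Chol diet. The hepatocyte sum was 11.4 to 11.5 on normal chow against 11.0 to 11.2 on the high-Chol diet. Of 9 stellate cell and cholangiocyte markers 1 was called, Col1a1. In RNA from whole liver, a change in the number of cells of a type and a change in the RNA per cell cannot be told apart, and the part of these cells in the results for Gbp2, Ifitm6, Ifi30, Irf8 and Ifng was not tested.

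The differences were also set against the promoter motifs. Over all genes tested, 2.69% were called higher, 47.8% were positive and the median difference was -0.02. Of the members with an ISRE core, 17 were tested, 11 were positive and 1 was called (Gbp2), with a median of 0.24. Of those with a GAS, 10 were tested, 6 were positive and 2 were called (Ifitm6 and Irf8), with a median of 0.34. Of those with neither motif, 13 were tested, 9 were positive and 1 was called (Ifi30), with a median of 0.22. Rsad2, Ifit1 and Ifit3, with the ISRE cores shown above, differed by 0.35, 0.34 and 0.01. These are counts over members named for the response, with 4 genes counted under both motifs, and no test was made of them.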

How the data were processed

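The authors deposited the scanner output of 6 one-color arrays (3 per diet), with the spot intensity extracted and background-subtracted by Agilent Feature Extraction (version 9.5 for slide 1 and 9.1 for slide 2 per the file headers, 9.1 in the submitters' processing notes) and not normalized between arrays. The authors also deposited log2 values, 1 per probe and diet, normalized and filtered in Gene Spring GX with settings not given in the sources used here, and these served only as an alternative. Here, control and outlier spots were left out, spots of a probe were averaged, and log2 intensity was expressed relative to each array's own 75th percentile. Probes not well above background on every array of 1 diet or the other were removed, and each gene kept its brightest remaining probe. Both diets entered a single model without covariates in limma (version 3.58.1, R 4.3.3, lmFit and eBayes), with Benjamini-Hochberg adjustment over 16726 genes and a threshold of 0.05. Changes past 1.5-fold were counted without a test.

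Of the 78 member probes, 62 matched a gene in the RefSeq table (GRCm38.p6) by accession, which gave 45 of 51 members a current symbol, of which 3 differ from that of the array. Positions of probes follow the annotation of the array (mm7), and positions of promoters follow GRCm38.p6. A probe not well above background on any array of a diet has only a bound there. The summed level of a list is the log2 of the sum of its linear values. The model was checked on simulated arrays with known changes. Precision is limited by the small number of arrays, and 0.1 is the smallest p that an exact permutation of 3 against 3 arrays allows. The rule for the members uses no measured value, but the families were selected for description, and the gene lists, tests and alternatives chosen, with earlier results of these data known. Members may be named freely, with the value on each array for those called, those with the largest differences and a fixed set of regulators and effectors, and of the pathway lists the genes called and selected ligands, receptors and effectors are named. Any others were picked with their values in view. The values of 2 members are not reported here, and both stay in the counts and medians. Alternative settings were median scaling, quantile normalization, a normexp background (offset 50), other filters on dim probes, other handling of several probes, a block for slide, fits without 1 array, a variance prior that was trended and robust, the authors' values and the methods' t-test. Plots were drawn with matplotlib 3.10.9.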

Additional observations from a re-analysis of the deposited data

How the results depend on the processing

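The number of members called higher, 4 (2.69% of all genes), was 0 with a normexp background (4 at p under 0.05 without adjustment), with no filter on dim probes (10), with slide as a block (5) and with the methods' t-test after adjustment (8), where 0, 26, 11 and 4 of all genes tested were called higher, and it was 3 or 4 under the remaining settings that kept all arrays. Leaving out each array in turn gave 1 to 10 called higher (1 without normal chow replicate 2 or high-Chol diet replicate 2, and 10 without high-Chol diet replicate 1) and 0 to 1 called lower (Ifi35, without high-Chol diet replicate 1). Of the 78 other pathway genes, 7 were called (2.92% of all genes), 0 with normexp (4 at p under 0.05 without adjustment), no filter (20), slide as a block (12) and the methods' t-test after adjustment (20), and 2 to 16 without single arrays (2 without normal chow replicate 2 or 3, and 16 without high-Chol diet replicate 1). The 10 members included Gbp2, Gbp5, Ifi203, Ifi205, Ifi30, Ifitm6, Irf8, Mx1 and Oas1f. Over these 6 fits the adjusted p was 0.003 to 0.053 for Ifitm6, 0.003 to 0.059 for Ifi30, 0.010 to 0.089 for Gbp2 and 0.009 to 0.176 for Irf8, and the call was lost in 1, 2, 3 and 5 of them. Past 1.5-fold, 6 members were higher and 5 lower with median scaling (10.5% and 16.6% of all genes), and 6 and 5 with the authors' values (9.38% and 17.5%), which had 1 value per diet and allowed no test. The number lower was 1 with quantile normalization (7.86% of all genes) and 2 with normexp (10.9%), and without single arrays the counts were 7 to 14 higher and 0 to 3 lower. The median of the members was 0.018 with median scaling, 0.066 with slide as a block and 0.012 with the authors' values, and 0.17 to 0.38 without single arrays. After subtracting the median over all genes, it was 0.28, 0.28, 0.27, 0.21 and 0.29 with the 75th percentile, median scaling, quantile normalization, normexp and the authors' values, and 0.13 with slide as a block. Going from the 75th percentile to median scaling could hardly change this value, because it shifts nearly every gene alike. Small differences changed sign: Oasl1 with median scaling (-0.10), the authors' values (-0.11) and without single arrays (-0.13 to 0.55), Irf3 with quantile normalization (0.17), normexp (0.28), the mean of the probes (0.085) and without single arrays (-0.10 to 0.056), and Mx2 with slide as a block (0.00098) and without single arrays (-0.27 to 0.15). The difference of Mx1, 1.32 and near background, was -0.48 with normexp. The causes were not tested. No paired analysis was possible because the arrays carry no replicate numbers that link the diets.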
